A study of Mus musculus with 11 samples.

Results

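The genes of the autophagy core machinery and its receptors were compared in kidney S3 proximal tubules of mice lacking Tamm-Horsfall protein (THP -/-) and of wild-type mice. The set held 39 genes, chosen by their role in autophagy, of which 38 had a probe set annotated with exactly 1 gene symbol, among 22180 genes measured in this way. For each gene the probe set with the highest mean over all 11 arrays was kept. Optn is named only. Gabarap alone had a second probe set. The 5 knockout arrays and 6 wild-type arrays came from strain 129/SvEv. Batch 1 held 3 knockout and 5 wild-type arrays, and batch 2 held 2 knockout arrays and 1 wild-type array. The labels give neither age nor sex, and nothing in them says whether 2 arrays could share a mouse, so the p-values reflect only array-to-array spread, which may be technical. Tamm-Horsfall protein, or uromodulin, is made mainly in the thick ascending limb and is encoded by Umod, and the comparison asks what its loss does to gene expression in S3 tubules.

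Macroautophagy encloses cytoplasm or a damaged organelle in a double membrane that fuses with the lysosome. The ULK kinase complex starts the process, the class III phosphatidylinositol 3-kinase complex marks the site with phosphatidylinositol 3-phosphate (PI3P), and ATG9 vesicles and ATG2 lipid transfer supply the membrane. Ubiquitin-like conjugation then attaches small ubiquitin-like proteins such as LC3 to the membrane lipid, and cargo receptors tie selected cargo to them. In the proximal tubule, which is rich in mitochondria, autophagy is known for clearing damaged mitochondria and for limiting injury.

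No autophagy gene passed the test over the whole array, while most had fitted differences above 0. Of the 38 genes 35 had a higher fitted signal in knockout than in wild type, with a median log2 difference of 0.11 and a range from -0.03 to 0.66. Over all genes 53.4% were above 0, and over the 12243 genes whose mean lay above every array median 60.4% were above 0, with a median of 0.05. All the autophagy genes but Fundc1 lay above every array median. Pink1, a kinase that tags damaged mitochondria for removal, was the 1 member whose groups did not overlap, at 1.55-fold, where 0.627% of all genes had no overlap. Of the 12243 brighter genes, 79 had no overlap with knockout higher and 14 with knockout lower. With limma 0 of the 38 genes passed an adjusted p of 0.05, and over all probe sets the share was 0.0%. At an unadjusted p under 0.05 there were 2 of the 38 genes, Pink1 and Atg9a, a share near the 5.64% of all genes at that level. The count of genes above 0 was 21 when replicate number entered as a block, where 54.3% of the brighter genes were above 0. In that block fit replicates 4 and 5 differed in batch between the groups, and wild-type replicate 6 had no partner. The genotype difference of that fit therefore came from replicates 1 to 3 of each group alone. The count was 28 after quantile normalization, where 55.8% of the brighter genes were above 0. The median of the 38 genes was 0.04 in the block fit (0.02 for the brighter genes) and 0.07 after quantile normalization (0.03 for the brighter genes), and it was 0.22 without knockout replicate 2 and 0.06 without knockout replicate 3. Leaving out 1 array moved the difference by over 1.5 times, or turned its sign, for 34 of the 38 genes. The exceptions were Pink1, Atg9a, Atg101 and Atg14. A difference near 0, such as the 0.01 of Uvrag, Atg2a, Wipi1 and Atg10, passes that ratio with a very small move. Leaving out wild-type replicate 6 leaves batch 2 without a wild-type array, so it gives the differences of batch 1 alone.

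**Figure D1:**
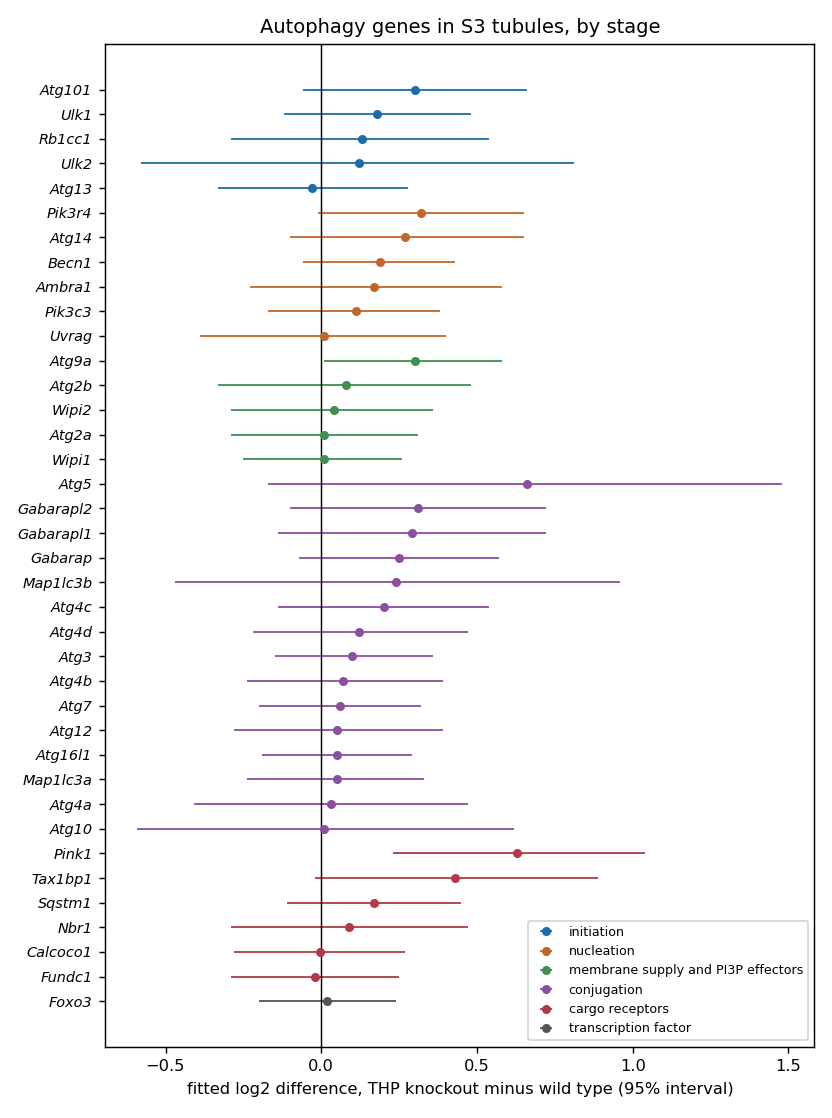
Fitted log2 difference, knockout minus wild type, of the 38 autophagy genes, with the batch as a term; points are estimates, bars 95% intervals, colours the stage. Pink1 and Atg9a have intervals that lie wholly above 0, and the widest intervals belong to Atg5 and Map1lc3b.

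The arrays were first checked against their labels. Umod read 3.68, 4.26, 4.67, 4.55 and 5.27 in knockout replicates 1 to 5, against 5.27, 5.67 and 6.74 in wild type (lowest, median and highest), so the groups met at knockout replicate 5. Umod signal averaged 4.49 ± 0.582 (SD, n = 5) in knockout and 5.80 ± 0.579 (SD, n = 6) in wild type, a fitted difference of -1.52 ± 0.24 (SE) with a limma adjusted p of 0.281. No source used here tells whether its probe set lies inside the deleted part. All 7 S3 markers lay above every array median, led by Atp11a (11.04 in knockout and 10.60 in wild type) and Slc7a13 (10.68 and 10.23). The dimmest S3 marker was Slc5a1, at 4.43 in both groups. The 5 measured general proximal tubule markers lay above the medians too. Some S1 and S2 markers were as bright, with Slc34a1 at 11.79 and 11.93 and Slc22a6 at 8.92 and 9.26. Others were dim, with Slc5a12 at 3.80 and 4.28. These levels alone therefore do not tell the proximal segments apart. Thick ascending limb markers were also present. Slc12a1, the sodium-potassium-chloride carrier of that segment, averaged 7.61 in knockout and 6.43 in wild type, with medians of 7.06 and 6.66. Knockout replicate 4 alone read 10.05, and the highest wild-type array 7.54. Macrophage and leukocyte markers lay near or below the array medians of 3.85 to 4.01, apart from Csf1r (6.93 and 6.34) and Cd68 (4.69 and 4.50).

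Markers of neighbouring tubule segments also differed in level among the arrays. All 7 S3 markers had fitted differences above 0, with a median of 0.45. Their mean log2 signal ran from 7.95 to 9.22 over knockout and from 7.33 to 8.56 over wild-type arrays, and their summed linear signal from 4230 to 8400 and from 2660 to 5400. All 6 measured thick ascending limb markers were above 0 too, with a median of 0.37, mean levels from 5.88 to 8.06 in knockout and from 5.49 to 6.38 in wild type, and summed signals from 538 to 2650 and from 414 to 763. Of the 8 markers of the S1 and S2 segments 7 were below 0, with a median of -0.24, mean levels from 5.58 to 6.96 in knockout and from 5.82 to 6.79 in wild type, and summed signals from 1990 to 5910 and from 2290 to 6340. Distal tubule and collecting duct markers were above 0 for 6 of 10 genes (median 0.04), with summed signals from 223 to 1500 in knockout and from 271 to 555 in wild type. Of the macrophage and leukocyte markers 5 of 7 were above 0 (median 0.04), with mean levels from 4.29 to 4.50 in knockout and from 4.14 to 4.40 in wild type, which overlapped, and summed signals from 194 to 242 in knockout and from 145 to 193 in wild type, where Csf1r was the brightest gene. The medians were 0.05 for endothelium (7 of 7 above 0), 0.01 for fibroblasts and mural cells (3 of 6) and -0.01 for podocytes (1 of 3). Within batch 1 and batch 2 the medians were 0.48 and 0.06 for S3, and 0.22 and 0.92 for the thick ascending limb. For S1 and S2 they were -0.4 and 0.14, and for distal tubule and collecting duct -0.23 and 0.63. Batch 2 has only 1 wild-type array. The part of these markers in the autophagy gene values was not tested. In such bulk samples fewer cells of a type and less RNA per cell cannot be told apart.

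In some arrays most of the autophagy genes stood high or low at once. Knockout replicates 3 and 4 stood high, with 32 and 33 of the 38 genes above their own mean over all arrays, and each held the highest value of 10 genes. Wild-type replicates 4 and 5 stood low, with 8 genes each above their own mean, and wild-type replicate 4 held the lowest value of 13 genes. Knockout replicate 2 went against its group, with 7 genes above their own mean and the highest value of 0. The mean log2 signal of the 38 genes was 5.74, 5.51, 5.90, 5.94 and 5.68 in knockout replicates 1 to 5, and ran from 5.38 in wild-type replicate 4 to 5.66 in wild-type replicate 2, so the groups overlapped through knockout replicate 2. Among the brighter genes the same arrays leaned the same way by less, with median deviations of 0.03 and 0.07 in knockout replicates 3 and 4, -0.02 in knockout replicate 2, and -0.07 and -0.03 in wild-type replicates 4 and 5. For the autophagy genes these deviations were 0.17, 0.28, -0.11, -0.22 and -0.17. Wild-type replicate 4 also had the lowest S3 marker mean (7.33) and knockout replicate 3 the highest (9.22). Knockout replicate 2 and wild-type replicate 5, where the autophagy genes stood low, had S3 means of 8.70 and 8.54. The thick ascending limb means were lowest in wild-type replicates 4 and 5 (5.49 and 5.59). Knockout replicate 4, with the most autophagy genes above their own mean, had the highest thick ascending limb mean (8.06) and the highest distal tubule and collecting duct mean (6.42, with the other arrays from 4.40 to 5.30). The medians of whole arrays were 3.89 and 3.85 in knockout replicates 3 and 4, and 3.98 in knockout replicate 2. They were 3.99 and 4.01 in wild-type replicates 4 and 5, and 3.87 in wild-type replicate 1. The part of marker levels or array medians in these deviations was not tested.

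**Figure D2:**
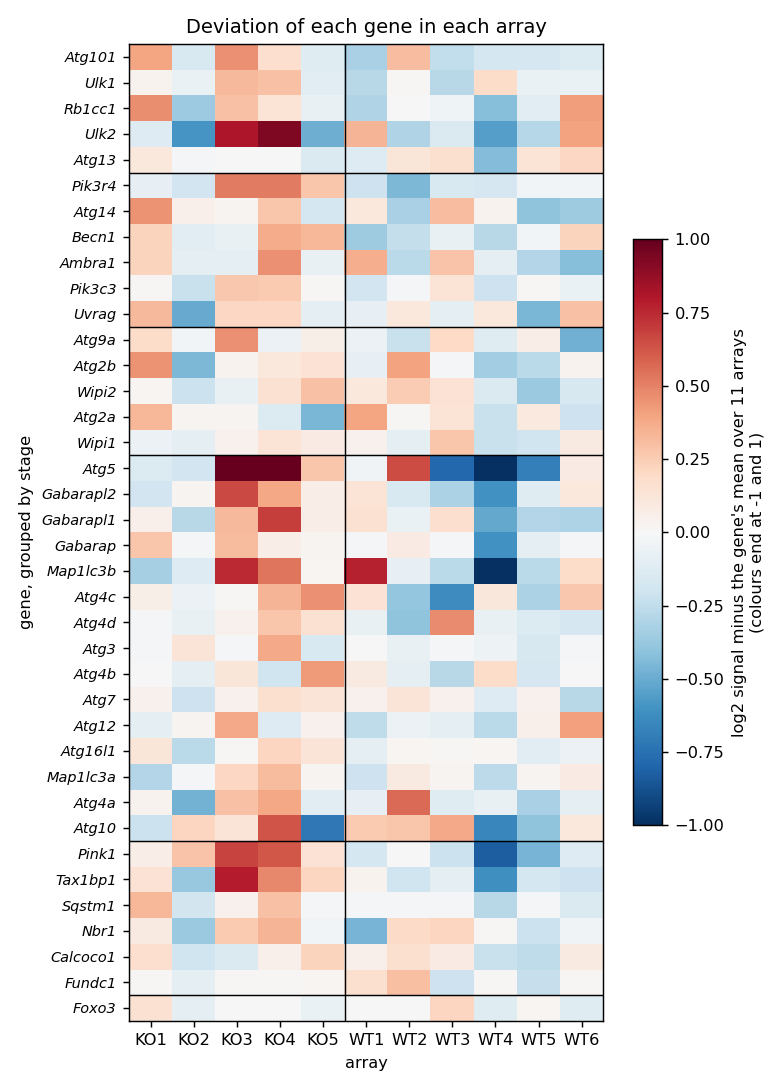
Log2 signal minus the gene's mean over all 11 arrays, for 38 autophagy genes (rows, by stage) in 5 knockout and 6 wild-type arrays (columns). Knockout replicates 3 and 4 are mostly red, knockout replicate 2 and wild-type replicates 4 and 5 mostly blue.

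The 250 bases before the RefSeq transcript start were read for 33 of the 39 genes from RefSeq windows of GRCm38.p6. The windows shown are those of Pink1 (chr4:138326297-138326546, minus strand), whose groups did not overlap, of Atg5 (chr10:44268089-44268338, plus strand), with the largest fitted difference, and of Atg3 (chr16:45158579-45158828, plus strand), which held the longest motif searched. Capitals mark CACGTG, the core of the site bound by TFEB and related lysosomal regulators, and its longer form TCACGTGA, with which it overlaps.

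Pink1: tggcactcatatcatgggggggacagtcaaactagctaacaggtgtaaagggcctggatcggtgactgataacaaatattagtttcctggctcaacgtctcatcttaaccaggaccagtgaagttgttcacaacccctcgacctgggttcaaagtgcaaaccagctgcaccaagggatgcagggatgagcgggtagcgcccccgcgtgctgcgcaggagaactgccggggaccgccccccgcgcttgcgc

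Atg5: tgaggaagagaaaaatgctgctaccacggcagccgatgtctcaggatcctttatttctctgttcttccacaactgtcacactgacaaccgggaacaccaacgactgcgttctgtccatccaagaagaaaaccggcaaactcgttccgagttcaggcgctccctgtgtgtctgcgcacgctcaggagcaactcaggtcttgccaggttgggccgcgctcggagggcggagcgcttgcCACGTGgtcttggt

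Atg3: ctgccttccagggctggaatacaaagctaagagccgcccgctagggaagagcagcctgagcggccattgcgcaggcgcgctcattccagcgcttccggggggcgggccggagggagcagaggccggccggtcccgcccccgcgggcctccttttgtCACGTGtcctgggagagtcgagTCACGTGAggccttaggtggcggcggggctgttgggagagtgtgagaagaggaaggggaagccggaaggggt

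The CACGTG core was in the windows of 3 genes, all of the conjugation stage. It began 14 bases before the start of Atg5, 132 before that of Atg7, and 94 and 71 before that of Atg3. That is 9.09% of the 33 genes, against 6.86% of 27025 genes with such windows. The longer TCACGTGA was in Atg3 alone, against 0.907% of all genes. GTAAACA, the site of FOXO factors, was in 0 of the 33 genes and in 3.54% of all. All 3 were searched on both strands and a match of letters is a description of the window. The fitted differences of the 3 genes with CACGTG were 0.66 for Atg5, 0.10 for Atg3 and 0.06 for Atg7.

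In the initiation complex, 4 of 5 genes had fitted differences above 0, with a median of 0.13, and none passed the test. Atg101, which with Atg13 holds the complex together, had log2 signals of 5.96, 5.41, 6.02, 5.73 and 5.44 in knockout replicates 1 to 5, against 5.24, 5.39 and 5.87 in wild type (lowest, median and highest). Only knockout replicates 1 and 3 exceeded the highest wild-type array. The difference was 0.30 ± 0.16 (SE), with a limma adjusted p of 0.826. Ulk1, the kinase that receives nutrient and energy signals, read 5.42, 5.32, 5.71, 5.68 and 5.28 in knockout, against 5.11, 5.32 and 5.57 in wild type. Knockout replicates 3 and 4 lay above all wild-type arrays, and the difference of 0.18 ± 0.14 (SE; limma adjusted p = 0.864) was 0.10 without knockout replicate 3. Rb1cc1, the scaffold also called FIP200, read 4.83, 4.0, 4.66, 4.50 and 4.29 in knockout, against 3.94, 4.29 and 4.78 in wild type, which overlapped over nearly their whole range. Its difference of 0.13 ± 0.19 (SE) was 0.31 within batch 1 and -0.39 within batch 2. Ulk2, the paralog of Ulk1, was the most variable of the stage, from 4.73 to 6.25 in knockout and from 4.77 to 5.72 in wild type, with a difference of 0.12 ± 0.31 (SE). Atg13 stood at -0.03 ± 0.14 (SE) and all its knockout arrays lay within the wild-type range. The median of the stage was 0.22 within batch 1 and -0.18 within batch 2, and removing single arrays took it to 0.03 (knockout replicate 3), 0.07 (wild-type replicate 4), 0.22 (wild-type replicate 6 or knockout replicate 5) or 0.26 (knockout replicate 2).

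All 6 genes of the nucleation complex had fitted differences above 0, with a median of 0.18, again with none past the test. The median was 0.31 within batch 2 and 0.09 when replicate number entered as a block. Pik3r4, which encodes the regulatory subunit VPS15, read 4.15, 4.04, 4.75, 4.75 and 4.51 in knockout, against 3.78, 4.07 and 4.20 in wild type. Knockout replicates 3, 4 and 5 lay above every wild-type array and the other two within the wild-type range. The difference was 0.32 ± 0.15 (SE; limma adjusted p = 0.813), and 0.18 without knockout replicate 3. Becn1, encoding Beclin 1, the scaffold of the complex, read 5.39, 5.05, 5.09, 5.54 and 5.50 in knockout, against 4.81, 5.01 and 5.39 in wild type. Both batch 2 knockout arrays exceeded every wild-type array, and the batch 2 wild-type array was the highest of its group. The batch-adjusted difference was 0.19 ± 0.11 (SE; limma adjusted p = 0.837). The difference within batch 1 was 0.20 and that within batch 2 was 0.13, and leaving out knockout replicate 1 gave 0.11. Atg14, the subunit that directs the complex to the forming membrane, read 5.57, 5.17, 5.15, 5.40 and 4.95 in knockout, against 4.72, 4.98 and 5.43 in wild type. Only knockout replicate 1 exceeded the wild-type arrays, and the difference was 0.27 ± 0.17 (SE; limma adjusted p = 0.840). Pik3c3, the lipid kinase VPS34 itself, stood at 0.11 ± 0.13 (SE), with means of 5.09 in knockout and 4.96 in wild type, and read 0.03 without knockout replicate 3 and 0.20 without knockout replicate 2. Uvrag, which takes the place of Atg14 in an endosomal form of the complex, stood at 0.01 ± 0.18 (SE). Ambra1, which binds Beclin 1, stood at 0.17 ± 0.19 (SE), with 0.02 within batch 1 and 0.62 within batch 2, a gap that was not tested.

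The 5 genes of membrane supply and PI3P reading had a median difference of 0.04, close to the 0.05 of the brighter genes, and Atg9a stood apart from the rest. Atg9a, the transmembrane protein whose vesicles seed the membrane, read 5.78, 5.57, 6.06, 5.54 and 5.66 in knockout, against 5.12, 5.51 and 5.80 in wild type. The groups overlapped, with knockout replicate 3 alone above every wild-type array, and the lowest array was the wild-type array of batch 2. The batch-adjusted difference was 0.30 ± 0.13 (SE), with an unadjusted limma p of 0.0433 and an adjusted p of 0.799. It was 0.23 within batch 1 and 0.48 within batch 2, and without a batch term it was 0.22 at an unadjusted limma p of 0.142. Atg2b, a lipid transfer protein, read 5.54, 4.64, 5.12, 5.19 and 5.23 in knockout, against 4.74, 5.04 and 5.49 in wild type, and knockout held both the highest and the lowest array. Its difference was 0.08 ± 0.18 (SE). Wipi2, the PI3P reader that recruits the conjugation machinery, read 5.83, 5.59, 5.73, 5.96 and 6.10 in knockout, against 5.44, 5.79 and 6.06 in wild type, at 0.04 ± 0.15 (SE). Atg2a and Wipi1 both stood at 0.01, with standard errors of 0.14 and 0.12. The stage median was -0.01 after quantile normalization and -0.09 with replicate number as a block. Removing single arrays took it to 0.01 (wild-type replicate 5 or knockout replicate 1), 0.02 (wild-type replicate 4), 0.07 (wild-type replicate 3), 0.09 (wild-type replicate 2) or 0.10 (knockout replicate 2).

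All 15 conjugation genes had fitted differences above 0, with a median of 0.10 and none past the test, and the count rests on values as small as 0.01. Atg5, which joins Atg12 to form the ligase that lipidates LC3, had the largest difference of the whole set and the widest spread. It read 5.57, 5.51, 6.80, 6.75 and 5.98 in knockout, against 4.38, 5.34 and 6.36 in wild type. Knockout replicates 3 and 4 lay above every wild-type array, and wild-type replicates 3, 4 and 5 below every knockout array. The difference was 0.66 ± 0.37 (SE), with a 95% interval from -0.17 to 1.48 and a limma adjusted p of 0.826. It was 0.37 without knockout replicate 3 and 0.31 when replicate number entered as a block. The other enzymes of this chain had smaller differences. Atg7, the activating enzyme of both conjugation chains, read 5.74, 5.49, 5.74, 5.86 and 5.83 in knockout, against 5.42, 5.74 and 5.83 in wild type, at 0.06 ± 0.12 (SE). The transfer enzymes Atg3 and Atg10 stood at 0.10 ± 0.11 and 0.01 ± 0.27 (SE), and the Atg5 partners Atg12 and Atg16l1 both at 0.05. The Atg4 proteases, which trim LC3 proteins before conjugation and release them afterwards, had differences of 0.03 for Atg4a, 0.07 for Atg4b, 0.20 for Atg4c and 0.12 for Atg4d.

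The ubiquitin-like substrates of the chain were given by 5 genes with differences from 0.05 to 0.31. Map1lc3b, which encodes LC3B, read 7.74, 7.94, 8.82, 8.61 and 8.09 in knockout, against 6.91, 7.89 and 8.84 in wild type. The wild-type group held both the highest and the lowest array, replicates 1 and 4. The difference was 0.24 ± 0.32 (SE; limma adjusted p = 0.921). Removing single arrays took it to 0.01 (knockout replicate 3), 0.07 (wild-type replicate 4), 0.38 (knockout replicate 1) or 0.42 (wild-type replicate 1), and the block fit to -0.04. Gabarapl2 read 6.13, 6.35, 6.98, 6.71 and 6.39 in knockout, against 5.72, 6.19 and 6.46 in wild type, with knockout replicates 3 and 4 above every wild-type array. Its difference of 0.31 ± 0.19 (SE; limma adjusted p = 0.839) was 0.13 without knockout replicate 3. Gabarap read 10.19, 9.90, 10.23, 9.98 and 9.94 in knockout, against a lowest value of 9.31 and a median of 9.90 in wild type. Knockout replicates 1 and 3 exceeded every wild-type array, and the low value was that of wild-type replicate 4 alone. That probe set gave 0.25 ± 0.15 (SE; limma adjusted p = 0.827), and 0.16 without wild-type replicate 4, whereas its dimmer second probe set gave -0.28 ± 0.21 (SE; limma adjusted p = 0.86), with means of 5.32 in knockout and 5.62 in wild type. The 2 probe sets of Gabarap thus disagreed in direction. Gabarapl1 stood at 0.29 ± 0.20 (SE), at 0.15 within batch 1, 0.68 within batch 2 and -0.05 in the block fit, and Map1lc3a at 0.05 ± 0.13 (SE). The median of the conjugation stage was 0.16 without knockout replicates 2 or 5 and 0.06 without knockout replicate 3.

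**Figure D3:**
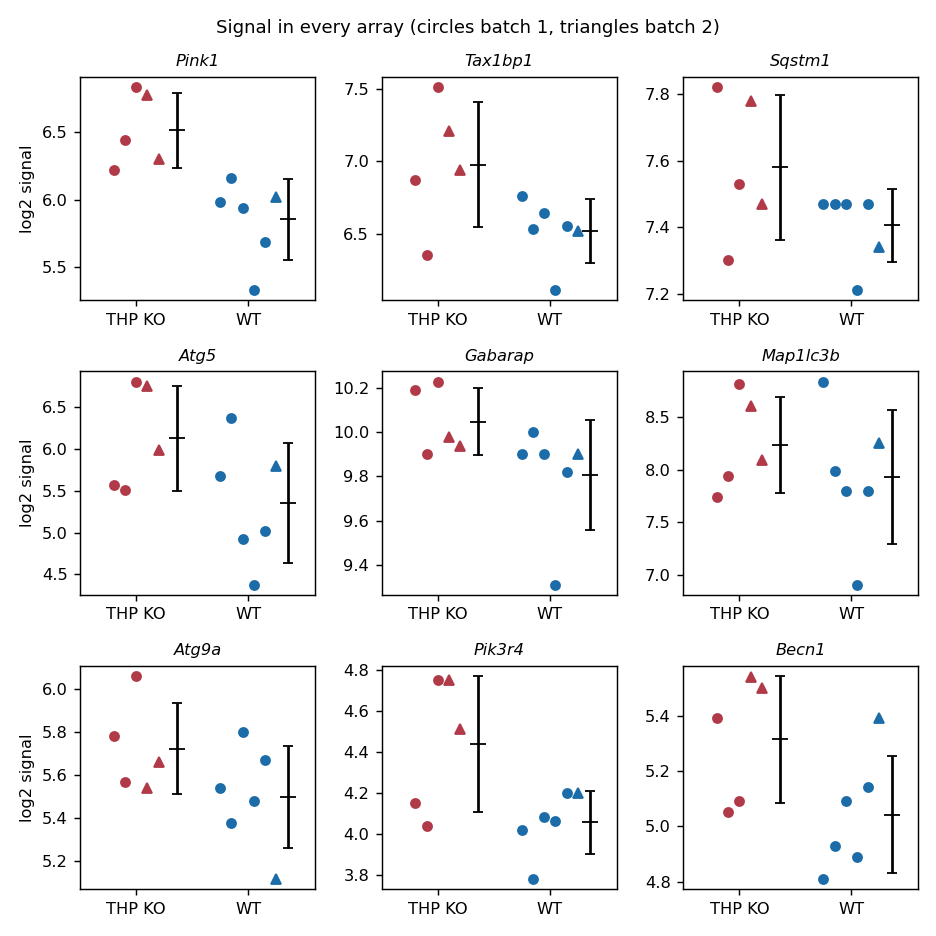
Log2 signal in every array of 9 autophagy genes, knockout left and wild type right, circles for batch 1 and triangles for batch 2; the bar beside each group gives its mean and SD (n = 5 and n = 6). Only for Pink1 do all knockout arrays (6.22 to 6.83) lie above all wild-type arrays (5.33 to 6.16); each panel has its own axis.

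Among the cargo receptors and mitophagy genes, Pink1 had the smallest p of all 38 genes. It read 6.22, 6.44, 6.83, 6.77 and 6.30 in knockout replicates 1 to 5, against 5.98, 6.16, 5.94, 5.33, 5.69 and 6.02 in wild-type replicates 1 to 6. The lowest knockout array read 6.22 and the highest wild-type array 6.16, so the groups did not overlap. Towards higher signal in knockout this held for 0.433% of all genes, and for 79 of the 12243 brighter genes. The means were 6.51 ± 0.275 (SD, n = 5) in knockout and 5.85 ± 0.299 (SD, n = 6) in wild type. With batch as a term the difference was 0.63 ± 0.18 (SE), with a 95% interval from 0.23 to 1.04, an unadjusted limma p of 0.00524 and an adjusted p of 0.674. It was 0.68 within batch 1 and 0.52 within batch 2. Leaving out each array in turn gave differences from 0.51, without knockout replicate 3, to 0.72, without knockout replicate 1. It was 0.59 without knockout replicate 4, the array with the highest thick ascending limb markers, and 0.47 at an unadjusted limma p of 0.098 when replicate number entered as a block. Pink1 did not pass the threshold over all probe sets in any setting tried.

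Tax1bp1 is a receptor for ubiquitin-tagged cargo. It read 6.87, 6.35, 7.51, 7.21 and 6.94 in knockout, against 6.11, 6.54 and 6.76 in wild type. Knockout replicates 1, 3, 4 and 5 lay above every wild-type array and knockout replicate 2 below all but 1 of them. The difference was 0.43 ± 0.20 (SE; limma adjusted p = 0.820), at 0.24 without knockout replicate 3. Sqstm1, encoding p62, the best-known receptor and itself a product that autophagy degrades, read 7.82, 7.30, 7.53, 7.78 and 7.47 in knockout, against 7.21, 7.47 and 7.47 in wild type. Knockout replicates 1, 3 and 4 exceeded the wild-type arrays, of which 4 held the same value. The difference was 0.17 ± 0.13 (SE; limma adjusted p = 0.860), at 0.09 without knockout replicate 1, 0.27 without knockout replicate 2 and 0.08 after quantile normalization. Nbr1, a receptor related to p62, stood at 0.09 ± 0.17 (SE), from 0.0048 without knockout replicate 3 to 0.22 without knockout replicate 2. Calcoco1, which in human cells is a receptor for endoplasmic reticulum, stood at -0.0034 ± 0.12 (SE) with batch as a term. Its means without that term were 6.29 in knockout and 6.25 in wild type. Fundc1, a receptor in the mitochondrial outer membrane, stood under each array's lower quartile (2.85 to 3.03), with means of 2.41 in knockout and 2.43 in wild type. The median of the 6 measured genes was 0.13, at 0.03 after quantile normalization, 0.05 in the block fit, 0.24 without knockout replicate 2 or within batch 2, and 0.08 without knockout replicate 1. Foxo3, a transcription factor that drives autophagy genes in muscle, stood at 0.02 ± 0.10 (SE), with means of 4.38 in both groups.

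The differences were also taken within each batch. Batch 1 gave 31 of 38 genes above 0 with a median of 0.09, and batch 2, with its lone wild-type array, 31 of 38 with a median of 0.13. The sign was the same in both batches for 24 of the 38 genes. Pink1, Atg5 and Tax1bp1 were above 0.3 in both, whereas Atg12, at 0.23 within batch 1 and -0.46 within batch 2, and Rb1cc1 turned sign.

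**Figure D4:**
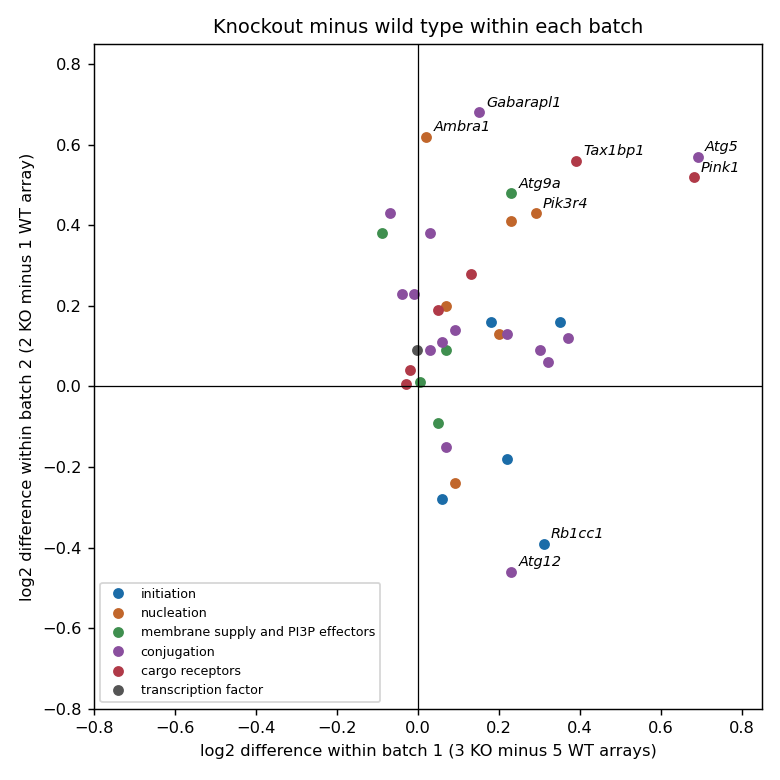
Knockout minus wild-type log2 difference of each autophagy gene within batch 1 (horizontal axis, 3 knockout and 5 wild-type arrays) and within batch 2 (vertical axis, 2 knockout arrays and 1 wild-type array), coloured by stage. Atg5 (0.69 and 0.57) and Pink1 (0.68 and 0.52) lie farthest to the upper right, and Rb1cc1 and Atg12 lie lowest.

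The wider pathway around these genes was read from 5 lists with 69 measured genes, of which 52 had fitted differences above 0, with a median of 0.10, and 0 passed the limma test over all probe sets. At an unadjusted limma p under 0.05 there were 7 above 0 and 1 below, where the shares over all genes are 3.64% and 2.0%. Of the 12243 brighter genes 6.75% were under that p, 620 above 0 and 206 below. In nutrient and energy sensing, the signals that hold the ULK kinases in check or release them, 19 of 23 genes were above 0 with a median of 0.10. Rptor, the scaffold of the mTORC1 kinase complex, averaged 6.28 ± 0.123 (SD, n = 5) in knockout and 5.86 ± 0.365 (SD, n = 6) in wild type, at 0.46 ± 0.18 (SE; limma adjusted p = 0.769). Mtor, its kinase, averaged 8.12 in knockout and 7.77 in wild type, at 0.35 ± 0.15 (SE), and Rragd, a GTPase that brings the complex to the lysosome, stood at 0.48 ± 0.21 (SE). The gene below 0 at an unadjusted p under 0.05 was Deptor, an inhibitor of the mTOR kinase, at -0.26, and it is named after its value was seen.

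Of the genes for fusion with the lysosome, 12 of 15 were above 0, with a median of 0.12. Rab7, the GTPase of late endosomes, averaged 9.11 ± 0.223 (SD, n = 5) in knockout and 8.71 ± 0.203 (SD, n = 6) in wild type, at 0.33 ± 0.13 (SE; limma adjusted p = 0.769), with 0.31 within batch 1 and 0.39 within batch 2. The fusion SNARE Ykt6 stood at 0.37 ± 0.21 (SE), with 0.57 within batch 1 and -0.22 within batch 2. The adaptor Plekhm1 stood at 0.25 ± 0.18 (SE). Of the 14 measured other genes of selective autophagy 13 were above 0, with a median of 0.15. The smallest p values there were those of 2 mitochondrial outer membrane proteins that bind LC3, Fkbp8 at 0.35 ± 0.13 and Bcl2l13 at 0.31 ± 0.13 (SE), with the kinase Tbk1, which activates receptors, at 0.17 ± 0.10. Among the partners of Beclin 1 and of the membrane 6 of 11 were above 0, with a median of 0.07, led by the lipid scramblase Tmem41b at 0.27 ± 0.13 (SE), with Rubcn, an inhibitor of the complex, at 0.11 and the Beclin 1 inhibitor Bcl2 at -0.11. Of the transcriptional regulators 2 of 6 were above 0, with a median of -0.01. There Foxo1 stood at 0.22 ± 0.15 (SE), Mitf at 0.07, and Zkscan3, a repressor of autophagy genes, at -0.24 ± 0.17. The mean signals of Zkscan3 and Bcl2 lay below every array median.

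**Figure D5:**
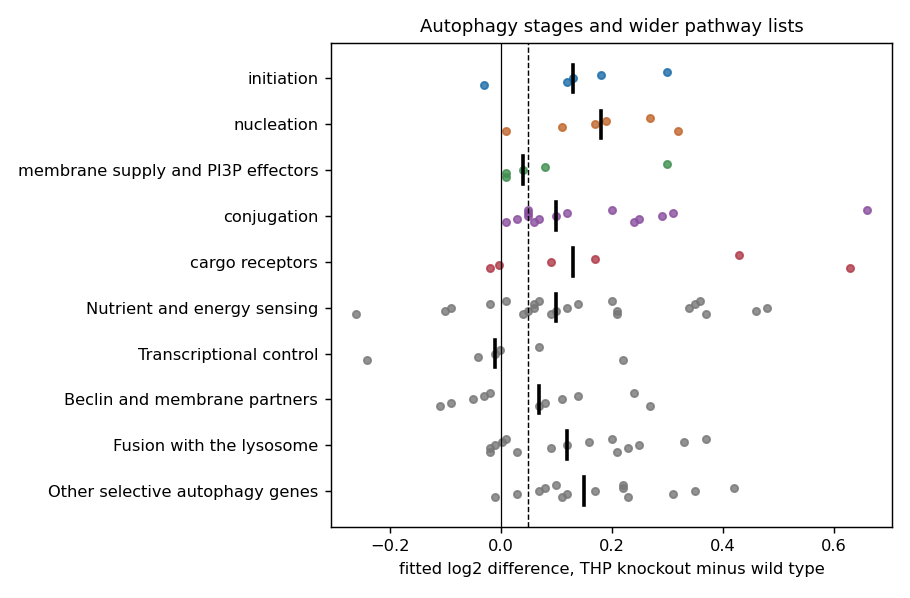
Fitted log2 difference, knockout minus wild type, of every measured gene (points) in the autophagy stages (coloured) and in the wider pathway lists (grey); black ticks are list medians and the dashed line the median of the brighter genes (0.05). With all arrays and the batch as a term nucleation has the highest stage median (0.18), whereas initiation is higher within batch 1 (0.22 against 0.15), in the block fit (0.25 against 0.09) and without some single arrays; transcriptional control lies around 0.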

How the data were processed

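The labels' protocols name Arcturus PicoPure extraction and, for 2 ng of total RNA per sample, Affymetrix WT Pico labelling. The authors deposited log2 signals; the submitters' processing notes list Partek 6.6 and RMA, which usually includes background correction, evening of array distributions and summarising into probe sets. This can shrink a shift shared by most genes. Filters and a genome build were not stated there. Values ran from 0.79 to 14.08 over 41345 probe sets, array medians from 3.85 to 4.01 and array correlations from 0.901 to 0.955. The number of arrays limits the precision.

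Of the probe sets 23521 carried 1 gene symbol, 1814 several and 16010 none. Every probe set entered a limma fit (version 3.58.1, R 4.3.3, lmFit with eBayes, genotype and batch as terms, two-sided, Benjamini-Hochberg over all probe sets, threshold 0.05). The step was tested on simulated data with independent noise, no batch shift and added differences larger than those of the autophagy genes. That simulation does not show how the fit behaves at the differences reported here. The fit had 8 residual degrees of freedom. List medians have no test. Members, stages and lists were chosen with earlier results of these data known. Each knockout array and the wild-type spread (lowest and median, mostly also the highest) are given for Ulk1, Becn1, Atg5, Atg7, Map1lc3b, Sqstm1, the 3 genes with the smallest p in each stage of 5 or more genes and Pink1, whose groups do not overlap and whose wild-type arrays are all given. For each wider list up to 3 genes with the smallest p are named. Of 71 genes in those lists 69 had a probe set. Alternatives were other batch terms, single batches, the replicate number as a block, a filter on dim probe sets, quantile normalization, median centring, array weights, another prior, other probe choices and leaving out each array. Promoter windows come from RefSeq (GRCm38.p6). Plots used matplotlib 3.10.9 in Python 3.11.15.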

Additional observations from a re-analysis of the deposited data

Results flagged for a closer look

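In 78 groups of values, the 38 autophagy genes and Umod in each genotype, 5 held an array far from the others of its group by Dixon's test, where chance gives about 1 in 20. Wild-type replicate 2 was the high one for Atg101 (5.87, with the next at 5.43) and for Atg4a (6.17, with the next at 5.53). Wild-type replicate 4 was the low one for Gabarap (9.31, with the next at 9.82) and for Tax1bp1 (6.11, with the next at 6.52). Knockout replicate 2 was the low one for Fundc1 (2.32, with the next at 2.43), a gene near the bottom of every array.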

How the results depend on the processing

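No autophagy gene passed the limma threshold over all probe sets in any setting, and 15 of 38 kept the sign of their difference throughout, among them Pink1 (0.47 to 0.72), Atg5 (0.31 to 0.85), Tax1bp1 (0.24 to 0.63) and Pik3r4 (0.18 to 0.43). The cause of the shifts below was not tested. Same-numbered arrays were linked in the labels by number alone, and whether they were paired is not known. The correlations of their deviations ran from -0.272 to -0.0244, and with batch adjusted from -0.175 to 0.0847. With the replicate block 0 autophagy genes had an unadjusted limma p under 0.05 and 21 lay above 0. The medians of conjugation and of membrane supply were then -0.0033 and -0.09. After quantile normalization the membrane supply median was -0.01, and within batch 2 alone the initiation median was -0.18. The 0 probe sets past the threshold became 3 within batch 1 alone and 1 with 1 probe set per gene, and ran from 0 to 11 without each array in turn (11 when knockout replicate 5 was left out, 2 for knockout replicate 3, 3 for wild-type replicate 6 and 1 for wild-type replicate 1); with all arrays 2546 had an unadjusted limma p under 0.05. The 2 autophagy genes at an unadjusted p under 0.05 became 1 within batch 1 alone or after quantile normalization and 4 with array weights, 1 probe set per gene or the mean over probe sets. Leaving out each array gave 1 to 5 of them (5 without knockout replicate 2, and 1 without wild-type replicates 4 or 6 or knockout replicates 3, 4 or 5), and 29 to 37 genes above 0. Batch 2 alone was given as values and not tested, since its wild-type arm is 1 array, and the filter on dim probe sets removed Fundc1. The block fit left 3 residual degrees of freedom and took its differences from replicates 1 to 3 of each group. Leaving out wild-type replicate 6 gave the differences of batch 1 alone. The array-by-array medians ran from 0.06 to 0.22 over all 38 genes. Single genes turned sign, among them Gabarapl1, Gabarap and Map1lc3b, whose differences were 0.29, 0.25 and 0.24. Within batch 2 alone these were Ulk2 (-0.18), Rb1cc1 (-0.39), Uvrag (-0.24), Atg2a (-0.09), Atg10 (-0.15), Atg12 (-0.46), Calcoco1 (0.04) and Fundc1 (0.005). Within batch 1 alone these were Atg13 (0.06), Wipi2 (-0.09), Atg4a (-0.04), Atg7 (-0.07), Atg16l1 (-0.01) and Foxo3 (-0.002). After quantile normalization these were Uvrag (-0.06), Atg2a (-0.01), Wipi1 (-0.05), Wipi2 (-0.01), Atg4a (-0.02), Atg12 (-0.0014) and Nbr1 (-0.01). With the replicate block these were Ambra1 (-0.11), Atg2a (-0.05), Atg2b (-0.09), Wipi1 (-0.11), Wipi2 (-0.26), Atg4a (-0.17), Atg4d (-0.01), Atg7 (-0.11), Atg10 (-0.26), Atg16l1 (-0.02), Map1lc3a (-0.0033), Map1lc3b (-0.04), Gabarapl1 (-0.05) and Foxo3 (-0.05). Without a batch term these were Atg2a (-0.08), Calcoco1 (0.04) and Foxo3 (-0.00033). With batch as a random block these were Atg2a (-0.09), Calcoco1 (0.04) and Foxo3 (-0.0026). With array weights these were Atg2a (-0.00091), Wipi1 (-0.0042), Atg10 (-0.05) and Calcoco1 (0.00064). With the mean over all probe sets these were Gabarap (-0.02). After median centring these were Calcoco1 (0.02). Leaving out each array in turn turned Ulk2 (-0.17 to 0.30), Atg13 (-0.11 to 0.06), Rb1cc1 (-0.03 to 0.31), Uvrag (-0.12 to 0.16), Atg2a (-0.07 to 0.06), Atg2b (-0.07 to 0.24), Wipi1 (-0.03 to 0.06), Wipi2 (-0.09 to 0.10), Atg4a (-0.07 to 0.19), Atg7 (-0.07 to 0.15), Atg10 (-0.12 to 0.17), Atg12 (-0.08 to 0.23), Atg16l1 (-0.01 to 0.14), Map1lc3a (-0.03 to 0.14), Calcoco1 (-0.08 to 0.05), Fundc1 (-0.06 to 0.03) and Foxo3 (-0.02 to 0.06).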

Other observations

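Equal values recurred among arrays. At 2 decimals 5 of the 38 autophagy genes (Atg7, Gabarap, Sqstm1, Fundc1 and Foxo3) had the same value in at least 4 of the 11 arrays, or 13.2%, beside 13.8% of the 12243 brighter genes, and these 5 were picked out after their values were seen. Promoter windows of the autophagy genes had a median GC content of 58.8%, against 52.4% over all windows.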
